A study of Mus musculus with 16 samples.

Results

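Libraries of mouse sperm RNA were split by their level of Gpx5, a secreted glutathione peroxidase made under androgen control by the caput, the head of the epididymis. The members were chosen by the measured Gpx5 count alone: the high side comprised the 9 of 16 libraries with at least 100 counts of Gpx5 per 1000000 gene counts (CPM), and the low side the other 7. Each library came from 1 male mouse fed either a high-fat diet (HFD, 8 libraries) or a control diet (CD, 8 libraries) from 3 weeks of age for 9 weeks, and the RNA was that of isolated motile sperm. Strain is not given in the sources used here. Because the sides were set from the measured Gpx5 and not by any treatment, Gpx5 was left out of every count and test. For the other genes, p-values describe association with that split and not an effect of a condition of the study.

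Sperm leave the testis without being able to fertilise and mature in the epididymis, a single coiled duct whose initial segment, caput, corpus and cauda secrete different proteins into the lumen. Segment-restricted products include lipocalins, beta-defensins, cystatins and ribonucleases, and many of them bind the passing sperm. The initial segment depends on the receptor tyrosine kinase ROS1 and on factors in testicular fluid, while Gpx5 is made further along, in the caput.

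Promoter sequences of Gpx5 and of a pair of genes whose values did not overlap between the sides are shown because these genes were high in the same libraries. Each is the RefSeq sequence (GRCm38.p6) from 250 to 81 bases before the gene's RefSeq start, written 5′ to 3′ on the gene's strand. Capitals mark matches to TGTTCT, the androgen response half-site, or AGGAAG, an ETS factor motif, searched on both strands. The RefSeq start is 21292686 for Gpx5 and 28549487 for Clpsl2. Both lie downstream of the starts in the GENCODE annotation, from which the gene positions in the rest of the text are taken, so the windows end nearer to those.
Gpx5, chr13:21292767-21292936, minus strand: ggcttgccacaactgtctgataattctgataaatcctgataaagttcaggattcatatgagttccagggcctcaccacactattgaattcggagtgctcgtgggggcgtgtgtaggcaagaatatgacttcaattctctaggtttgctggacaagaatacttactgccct
Clpsl2, chr17:28549237-28549406, plus strand: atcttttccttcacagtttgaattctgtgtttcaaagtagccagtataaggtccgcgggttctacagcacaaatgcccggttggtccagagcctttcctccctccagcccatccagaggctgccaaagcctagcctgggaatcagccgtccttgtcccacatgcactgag
Ly6g5c, chr17:35108044-35108213, plus strand: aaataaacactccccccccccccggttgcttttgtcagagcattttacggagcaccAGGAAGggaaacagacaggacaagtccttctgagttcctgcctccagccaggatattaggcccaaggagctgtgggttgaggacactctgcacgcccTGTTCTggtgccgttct
Neither motif was found in the Gpx5 or Clpsl2 window, and the Ly6g5c window held 1 match to each. Among 27025 promoter windows of this length, 11.5% held TGTTCT and 20.1% held AGGAAG on either strand.

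Gpx5 lies on chromosome 13 from 21286429 to 21292731 on the minus strand (GRCm38). On the low side its level was 1.39 CPM in CD 3, 3.47 in CD 8, 8.61 in HFD 1, 8.83 in HFD 7, 13.3 in HFD 4, 14.0 in CD 5 and 28.4 in CD 1. On the high side it was 246 CPM in CD 6, 260 in HFD 3, 1007 in CD 7, 1203 in CD 4, 1754 in HFD 8, 1941 in CD 2, 2681 in HFD 2, 6453 in HFD 6 and 7427 in HFD 5. CD 1 was the library just below the limit and CD 6 the library just above it. Low-side libraries still held 5 to 98 Gpx5 counts. The high side held 5 of 8 HFD and 4 of 8 CD libraries (two-sided Fisher's exact test of side by diet, p = 1).

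**Figure D1:**
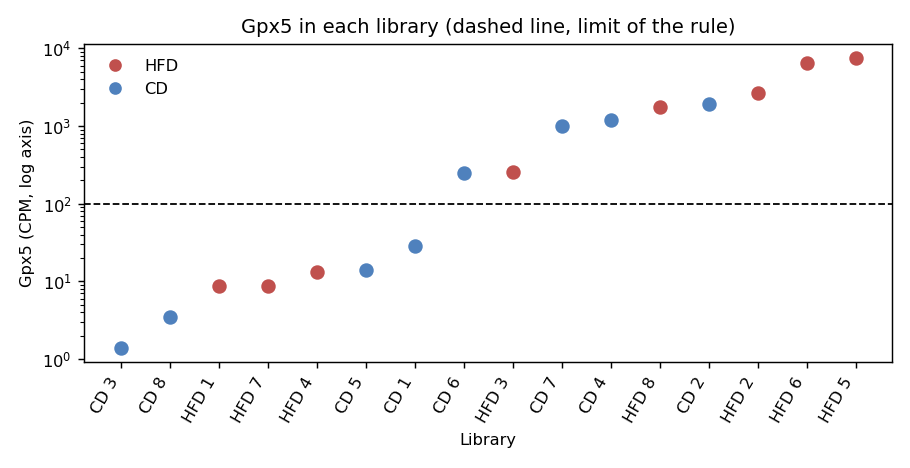
Gpx5 in CPM on a log axis for each of the 16 libraries in rising order, with the diet as colour and the limit of 100 CPM as a dashed line. No library lies between 28.4 and 246 CPM.

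The low side was not free of epididymal transcripts, so the sides are named here by Gpx5 and not as libraries with and without caput RNA. The summed level of 11 other caput genes was 2497 CPM at its lowest, 19236 at the median and 33345 at its highest on the high side, and 2269, 10805 and 15541 CPM on the low side. Lcn5, a retinoid-binding lipocalin of the caput, was at 441 to 5943 CPM across the low side. The low side thus held abundant transcripts of some caput genes beside little Gpx5. Other genes of the list were scarce there: Lcn10 had 0 counts per low-side library, Cst12 0 to 1, Spag11b 1 to 30, Lcn6 0 to 34 and Defb41 0 to 101. On the high side the same genes had 0 to 43, 0 to 122, 40 to 1719, 15 to 66 and 30 to 691 counts. The 10 abundant epididymal genes, nearly all secreted, summed to 8560 to 69809 CPM on the high side and 14338 to 68995 CPM on the low side. Transcripts of 43 late spermatid genes, the developmental stage that sperm derive from, summed to 2797 to 60035 CPM on the high side and 3499 to 28690 CPM on the low side. In bulk RNA, fewer cells of a type and less RNA per cell cannot be told apart.

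Gene counts per library ran from 2721022 to 7783981 on the high side and from 1882555 to 4760694 on the low side. Of 6 measures of depth and composition, including the share of reads in genes and the share of Rn45s ribosomal RNA, none passed the threshold between the sides (exact permutation tests over 3920 assignments of side within diet, two-sided, adjusted p = 0.495 to 0.972). HFD 4, on the low side, and HFD 8, on the high side, stood apart in most epididymal sums, and results were also computed without them.

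The expression filter asked for at least 8 libraries, so a gene expressed only in the 7 low-side libraries could not be tested. Across 13148 tested genes, 3 were higher on the high side (0.0228% of genes) and 0 were lower (0%) by edgeR's quasi-likelihood F-test with diet as a covariate, at a Benjamini-Hochberg adjusted p under 0.05. The 3 genes were Clpsl2, a colipase-like protein, Slc38a5, a glutamine transporter of the plasma membrane, and Prex2, an exchange factor that activates Rac GTPases. With no filter beyond 10 counts in total, the same 3 were higher and 0 were lower among 18230 genes. At an unadjusted p under 0.05, 399 genes were higher (3.03%) and 280 were lower (2.13%), together 679 genes, or 5.16% of those tested. The balance changed when single libraries were left out: it was 672 higher and 1116 lower without HFD 8, 529 and 584 without HFD 7, and 405 and 443 without HFD 1. DESeq2 called 45 genes higher (0.342%) and 4 lower (0.0304%). Limma-voom, run here and below with library quality weights, called 85 higher (0.646%) and 7 lower (0.0532%), so the count depended on the method. These tools called 27 genes in common, which is 55.1% of the genes of DESeq2 and 29.3% of those of limma-voom.

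Clpsl2 lies on chromosome 17 from 28549411 to 28552620 on the plus strand and overlaps no other annotated gene. Its lowest, median and highest levels were 13.6, 67.5 and 215 CPM on the high side, and 0.270, 0.557 and 4.93 CPM on the low side. Every high-side library was above every low-side library, and 6 of the 7 low-side libraries held 5 counts or fewer. Clpsl2 therefore passed the expression filter through the 9 high-side libraries. The log2 difference was 5.97 ± 0.76 (SE, 9 against 7 libraries, edgeR adjusted p = 0.0054). Leaving out any 1 of the 16 libraries kept the call, with adjusted p from 0.000333 to 0.0361. The call was also kept without HFD 4 and HFD 8 (log2 difference 5.93, adjusted p = 0.0467), by DESeq2 and by limma-voom (adjusted p = 0.0208). It was not reached within either diet by the interaction model (edgeR adjusted p = 0.518 in CD and 0.119 in HFD). With the replicate number as a block the call was lost as well, as 0 genes passed.

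Slc38a5 lies on the X chromosome from 8271133 to 8280179 on the plus strand. Its lowest, median and highest levels were 15.8, 344 and 981 CPM on the high side, and 1.77, 5.67 and 20.3 CPM on the low side. The sides overlapped through CD 6 at 15.8 CPM and HFD 3 at 16.1 CPM, which lay below CD 1 of the low side at 20.3 CPM. The log2 difference was 5.71 ± 0.92 (SE, edgeR adjusted p = 0.0401). Without HFD 4 and HFD 8 it was 5.97 and the adjusted p 0.0951.

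Prex2 lies on chromosome 1 from 10993465 to 11303681 on the plus strand, and Gm24173 and Gm28686 overlap it on the other strand. Its lowest, median and highest levels were 4.20, 55.3 and 103 CPM on the high side, and 1.11, 3.15 and 9.0 CPM on the low side. Again HFD 3 at 4.20 CPM and CD 6 at 7.50 CPM fell within the low-side range, and the other 7 high-side libraries lay above it. The log2 difference was 3.83 ± 0.62 (SE, edgeR adjusted p = 0.0401), and 3.75 without HFD 4 and HFD 8 (adjusted p = 0.0712). Neither Slc38a5 nor Prex2 passed the threshold by limma-voom (adjusted p = 0.0567 and 0.0585), while DESeq2 called both. The calls of Slc38a5 and Prex2 were lost when any 1 of HFD 1, HFD 2, HFD 4, HFD 5, HFD 6, HFD 7, CD 2, CD 3, CD 4, CD 5, CD 7 or CD 8 was left out, with adjusted p up to 0.195 for both genes.

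Genes with no overlap between the sides numbered 5 with the high side above (0.038% of genes) and 1 with the high side below (0.00761%). Beside Clpsl2 the 5 were Lcn2, Spag11b, Ly6g5c and Cd300a, and the 1 was Nup155, a nucleoporin. Apart from Clpsl2, none passed the edgeR threshold. DESeq2 and limma-voom each called Lcn2, Spag11b and Ly6g5c higher, and DESeq2 also called Cd300a higher.

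Lcn2, a lipocalin that binds bacterial siderophores, had lowest, median and highest levels of 78.5, 122 and 258 CPM on the high side and 5.84, 40.3 and 67.9 CPM on the low side. Its log2 difference was 2.00 ± 0.37 (SE, edgeR adjusted p = 0.121), and without HFD 4 and HFD 8 it passed the threshold (1.81, adjusted p = 0.0467). Spag11b, a beta-defensin-like secreted protein of the epididymis, was at 11.2, 46.4 and 632 CPM on the high side and 0.531, 3.34 and 6.30 CPM on the low side. All its 4 highest values were in HFD libraries, HFD 5, HFD 6, HFD 8 and HFD 2. Its log2 difference was 4.57 ± 0.87 (SE, edgeR adjusted p = 0.121). Spag11b belongs to a gene family and overlaps Gm45826, so its counts could be split with near copies. Ly6g5c, a member of the Ly6 family, was at 12.6, 32.2 and 106 CPM on the high side and 0, 0.353 and 10.7 CPM on the low side, with a log2 difference of 4.63 ± 0.88 (SE, edgeR adjusted p = 0.121). CD 1, the low-side library with the most Gpx5, held the highest low-side value of both Ly6g5c and Clpsl2.

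**Figure D2:**
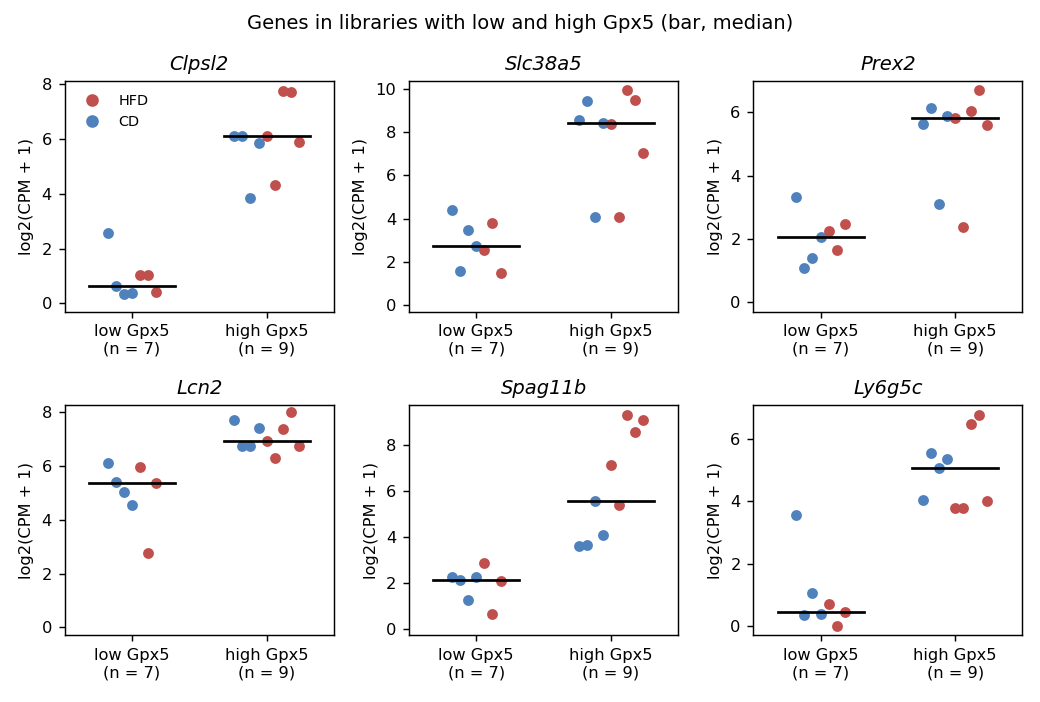
Levels as log2(CPM + 1) of Clpsl2, Slc38a5, Prex2, Lcn2, Spag11b and Ly6g5c in libraries with low Gpx5 (n = 7) and high Gpx5 (n = 9), 1 point per library coloured by diet, with the median as a bar. The sides overlap for Slc38a5 and Prex2 and not for the other 4 genes.

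The next genes were named for their small unadjusted p, and none passed the edgeR threshold. DESeq2 and limma-voom both called Gpr64, Pemt, Ndrg2, Slc7a5 and Slc4a4 higher. Gpr64, the older symbol of Adgrg2, an adhesion receptor of the efferent ducts and proximal epididymis, was at 52.0, 161 and 269 CPM on the high side and 8.50, 22.6 and 54.0 CPM on the low side. Its sides overlapped only slightly, and its log2 difference was 2.31 ± 0.43 (SE, edgeR adjusted p = 0.121). Pemt, which methylates phosphatidylethanolamine to phosphatidylcholine, differed by 2.01 ± 0.41 on the log2 scale and Ndrg2, of the N-myc downstream-regulated family, by 1.47 ± 0.30 (edgeR adjusted p = 0.172 and 0.171). Slc7a5, the light chain of a large neutral amino acid transporter, differed by 1.92 ± 0.46 (adjusted p = 0.304), and Slc4a4, a sodium bicarbonate cotransporter, by 1.06 ± 0.25 (adjusted p = 0.301). Of 12 tested genes of fluid and solute transport along the duct, 0 passed the adjusted threshold in either direction, and 6 differences were positive and 6 negative, with a median of 0.04. At an unadjusted p under 0.05, 3 were higher (Slc4a4, Slc9a2 and Car12) and 0 were lower, where 3.03% of all genes were higher and 2.13% lower. These background shares apply to each list count at an unadjusted p under 0.05 that follows.

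Among genes of the initial segment, 7 of 11 passed the expression filter and 0 passed the adjusted threshold in either direction, with 3 higher and 0 lower at an unadjusted p under 0.05 (3.03% and 2.13% of all genes). Their median log2 difference was 0.91, against 0.00 (-0.00037) over all genes tested, with 5 positive and 2 negative. Cst8, Ggt1, Srd5a1 and Srd5a2 were tested too and did not reach an unadjusted p under 0.05 in either direction. The 3 genes that did were Rnase10, Ros1 and Ovch2. Rnase10, a secreted protein of the ribonuclease A family, was at 0.388, 6.21 and 33.5 CPM on the high side and 0, 0 and 5.84 CPM on the low side. It differed by 3.81 ± 1.11 on the log2 scale (SE, edgeR adjusted p = 0.649), and DESeq2 called it higher. Ros1, the receptor kinase, was at 10.1, 320 and 410 CPM on the high side and 52.1, 109 and 206 CPM on the low side, a difference of 1.20 ± 0.51 (adjusted p = 0.925). The lowest Ros1 value of all 16 libraries was in HFD 8, a high-side library. Ovch2, an ovochymase-like protease, differed by 1.5 ± 0.58 (adjusted p = 0.879). Of 12 tested genes of ROS1, ERK and ETV signalling, Ros1 was the 1 with an unadjusted p under 0.05, and the list's median log2 difference was 0.08.

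Among other caput genes, 9 of 11 passed the filter, 0 passed the adjusted threshold in either direction, and 4 were higher and 0 lower at an unadjusted p under 0.05 (3.03% and 2.13% of all genes). Their median log2 difference was 1.18, with Spag11b and Defb41 the largest. Lcn5 was at 166, 7787 and 17106 CPM on the high side and 441, 2241 and 5943 CPM on the low side, a log2 difference of 1.21 ± 0.62 (SE, edgeR adjusted p = 0.933). HFD 8 held the lowest Lcn5 of all libraries and CD 2 the highest, so the high side spanned the whole low-side range. Adam7, a sperm-binding membrane protein, differed by 0.78 ± 0.42 (adjusted p = 0.933). Ptgds, the lipocalin-type prostaglandin D synthase, differed by 0.40 ± 0.43 and Eddm3b, an epididymal secretory protein, by -0.02 ± 0.41. The levels of both genes overlapped between the sides.

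Of 10 lipocalins in the table, 4 passed the filter, and all 4 had positive log2 differences, with a median of 1.61. None passed the adjusted threshold, and 3 were higher at an unadjusted p under 0.05 (Lcn2, Lcn6 and Lcn12), against 3.03% of all genes. Lcn5, Lcn6 and Lcn12 are also in the caput list above, so these lists are not separate results. Lcn12, an epididymal lipocalin, was at 101, 198 and 290 CPM on the high side and 10.1, 75.8 and 129 CPM on the low side, a log2 difference of 1.18 ± 0.37 (SE, edgeR adjusted p = 0.707). Lcn6 differed by 2.33 ± 0.70 from low levels of 0 to 7.14 CPM on the low side (adjusted p = 0.649). By limma-voom Lcn2 and Lcn12 passed the threshold, and by DESeq2 Lcn2 did.

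Beta-defensins, small cationic antimicrobial peptides of which many coat sperm, were the largest group of segment-restricted genes, with 30 of 42 passing the filter. By edgeR 0 passed the adjusted threshold, while 9 were higher and 0 lower at an unadjusted p under 0.05 (3.03% and 2.13% of all genes), and 20 of 30 differences were positive, with a median log2 difference of 0.33. Across all genes tested, 49.9% of differences were positive. DESeq2 called 6 of them higher (Defb12, Defb15, Defb18, Defb20, Defb41 and Defb47) and limma-voom 5 (Defb12, Defb15, Defb19, Defb41 and Defb47). Members lie in clusters on a few chromosomes. Both tested members on chromosome 1, 4 of 5 on chromosome 14, 5 of 9 on chromosome 2 and 9 of 14 on chromosome 8 had positive differences.

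Defb15 was at 4.58, 83.5 and 234 CPM on the high side and 1.06, 6.30 and 14.2 CPM on the low side, a log2 difference of 3.61 ± 0.75 (SE, edgeR adjusted p = 0.172). Defb18 differed by 3.90 ± 0.85 (adjusted p = 0.199) and Defb41 by 3.27 ± 0.77 (adjusted p = 0.301). Defb12, the most abundant of the 9, was at 24.8, 826 and 3455 CPM on the high side and 11.7, 127 and 351 CPM on the low side, with a log2 difference of 2.79 ± 0.75 (adjusted p = 0.534). For each of these 4 genes some high-side library lay within the low-side range. Of the 9 tested members on chromosome 2, 3 were higher at an unadjusted p under 0.05 (Defb19, Defb20 and Defb21) and 4 had negative differences (Defb22, Defb23, Defb26 and Defb28). Defb21 was at 7.84, 537 and 1216 CPM on the high side and 13.3, 124 and 395 CPM on the low side, a log2 difference of 1.52 ± 0.69 (adjusted p = 0.933). Defb28 was at 213, 1130 and 1968 CPM on the high side and 219, 1824 and 1854 CPM on the low side, a log2 difference of -0.36 ± 0.39 (adjusted p = 0.952).

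Protease inhibitors of the WFDC and SPINK families gave 10 positive and 10 negative differences among 20 tested genes, with 0 past the adjusted threshold and 3 higher and 0 lower at an unadjusted p under 0.05. Spink5, a serine protease inhibitor, was at 123, 1266 and 4148 CPM on the high side and 71.3, 253 and 565 CPM on the low side, a log2 difference of 2.57 ± 0.67 (SE, edgeR adjusted p = 0.469). Spink2, an inhibitor of acrosomal proteases, differed by 1.66 ± 0.49 (adjusted p = 0.649). DESeq2 called Spink5 higher, and limma-voom Spink5 and Spink2. Spink8, the most abundant member of this group described here, was at 1475, 12473 and 18800 CPM on the high side and 2632, 12738 and 14457 CPM on the low side, a difference of 0.23 ± 0.41 (adjusted p = 0.968).

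Abundant epididymal genes, a list of secreted proteins and the receptor Gpr64, had a median near that of all genes. Their median log2 difference was 0.13 over 10 genes, 0 of which passed the adjusted threshold, and Gpr64 and Clu were higher at an unadjusted p under 0.05. Crisp1, a cysteine-rich protein that binds sperm, was at 2881, 8527 and 14455 CPM on the high side and 4677, 15186 and 18263 CPM on the low side, a log2 difference of -0.46 ± 0.36 (SE, edgeR adjusted p = 0.933). Npc2, a cholesterol-binding secretory protein, differed by 0.02 ± 0.36. Clu, the chaperone clusterin, was at 255, 6336 and 10885 CPM on the high side and 317, 1504 and 3858 CPM on the low side, a difference of 1.5 ± 0.59 (adjusted p = 0.902). Limma-voom called Clu and Gpr64 higher, and DESeq2 called Gpr64 higher. Of 4 corpus and cauda genes, Cd52 and Ces5a differed by -0.35 ± 0.38 and 0.02 ± 0.35, whereas Cryba4 differed by 2.79 ± 0.79 and Plac8 by 1.33 ± 0.41 (adjusted p = 0.638 and 0.705). Cryba4 was called higher by DESeq2.

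Of 6 other glutathione peroxidases tested, 0 passed the adjusted threshold in either direction and 1, Gpx7, was higher at an unadjusted p under 0.05. Gpx3, the abundant secreted form, was at 1149, 4618 and 9012 CPM on the high side and 1200.5, 6673 and 8553 CPM on the low side, a log2 difference of -0.34 ± 0.39 (SE, edgeR adjusted p = 0.952). Of 12 tested regulator genes of the caput, 0 passed the adjusted threshold in either direction, and Rara and Cebpb were higher at an unadjusted p under 0.05.

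**Figure D3:**
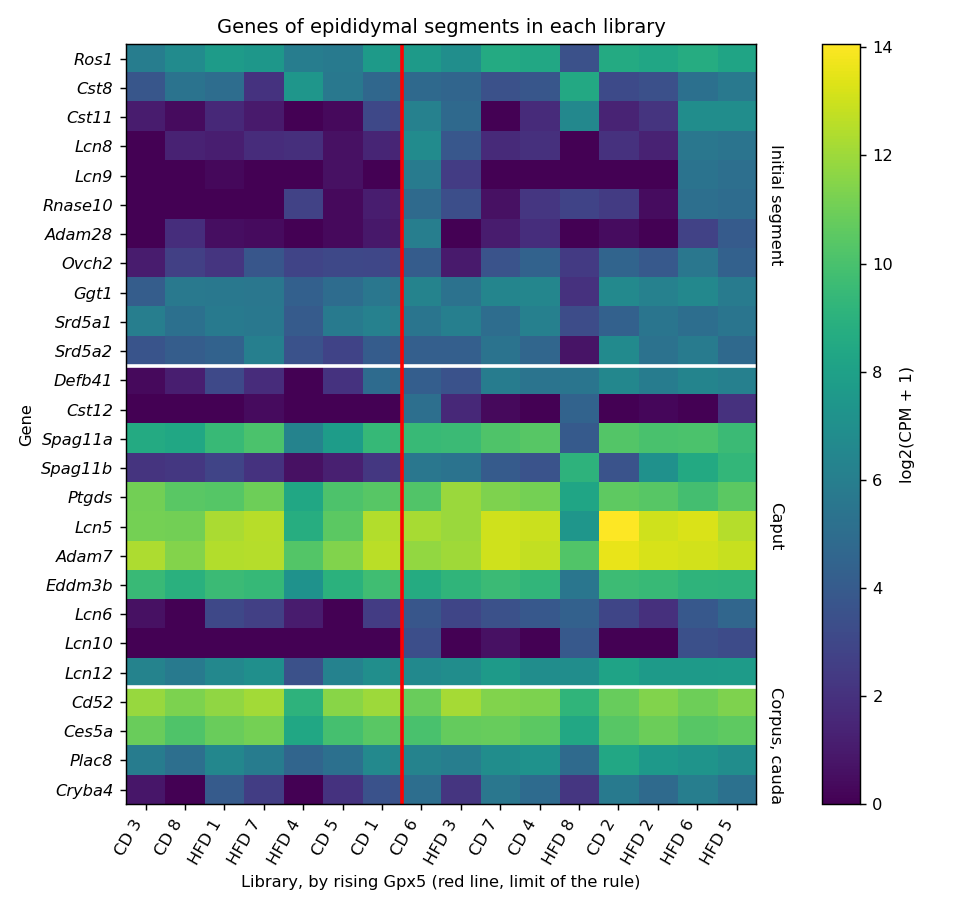
Levels as log2(CPM + 1), by colour, of genes of the initial segment, caput, and corpus and cauda in each library, ordered by rising Gpx5 with the limit as a red line. Lcn8 and Lcn9 are bright in CD 6, HFD 3, HFD 5 and HFD 6, and Lcn5, Ros1 and Spag11a are darkest in HFD 8.

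The 9 high-side libraries were not alike, a pattern described here after the values were seen and without a test. Lcn8 and Lcn9, lipocalins of the initial segment and caput, were at 110 and 57.2 CPM in CD 6, 13.0 and 4.55 in HFD 3, 41.5 and 33.8 in HFD 5 and 46.8 and 40.6 in HFD 6. In the other 12 libraries Lcn8 was at most 2.95 CPM and Lcn9 at most 0.54 CPM. Cst11, an epididymal cystatin, was at 71.4 CPM in CD 6, 27.0 in HFD 3, 118 in HFD 5, 118 in HFD 6 and 95.1 in HFD 8, and at most 7.26 CPM elsewhere. CD 6 and HFD 3 therefore had the lowest Gpx5, Slc38a5 and Prex2 of the high side beside high Lcn8. Lcn8, Lcn9, Cst11, Cst12, Lcn10 and Adam28 did not pass the filter by diet. Under a filter by diet and side they passed and none was past the threshold (edgeR adjusted p from 0.583 for Lcn8, Lcn9 and Cst12 to 0.759 for Adam28), though that filter admits a gene through the side where it is high. The filter by diet can also do so, as for Clpsl2 and Ly6g5c. HFD 8 joined high Gpx5 (1754 CPM) with Lcn5 at 166, Ros1 at 10.1, Spag11a at 15 and Clu at 255 CPM, each the lowest of the 16 libraries. Its summed late spermatid level was 60035 CPM, and that of the next high-side library 11162 CPM.

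Of genes lower on the high side, edgeR called 0, and genes expressed only on the low side were not among those tested. Slc19a3, a thiamine transporter, was at 1.75, 3.68 and 7.58 CPM on the high side and 6.30, 13.1 and 46.2 CPM on the low side. Its log2 difference was -1.96 ± 0.47 (SE, edgeR adjusted p = 0.301), and DESeq2 called it together with Depdc1b, Gpm6a and Tnnt2. Wt1, a transcription factor of Sertoli cells and other mesoderm-derived cells, differed by -1.29 ± 0.38 (adjusted p = 0.649) and was 1 of the 7 genes that limma-voom called lower. Late spermatid genes gave 36 negative and 7 positive differences among 43 tested, with 0 past the adjusted threshold, 0 higher and 4 lower at an unadjusted p under 0.05 (Acrv1, Spaca1, Spaca3 and Spam1). Their median log2 difference was -0.56, and -0.31 without HFD 4 and HFD 8. Spaca1, a sperm acrosome membrane protein, differed by -1.75 ± 0.61, and by -0.94 without those libraries (adjusted p = 0.811 and 0.665). Prm1, the protamine that packs sperm DNA, was at 124, 557 and 9276 CPM on the high side and 121, 448 and 1356 CPM on the low side.

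Of 21 tested leukocyte genes, 0 passed the adjusted threshold, 0 had an unadjusted p under 0.05 in either direction, and the summed level was 317 to 1820 CPM on the high side and 613 to 1242 CPM on the low side. The 17 stromal, endothelial and smooth muscle genes gave the same counts of 0, with sums of 389 to 1322 and 515 to 1464 CPM. Of 4 tested Sertoli genes, Clu and Sox9 were higher and Wt1 and Trf lower at an unadjusted p under 0.05. Of the 12 genes of that list, Amh and Fshr had 0 counts in all libraries. Wt1 had 5 to 82 counts per library, Trf 74 to 256 and Sox9 7 to 404. Whether Sertoli cell RNA was present was not tested. Genes of general secretory folding (24 of 28 positive, median log2 difference 0.18), cytosolic ribosomal proteins (66 of 76, median 0.19) and Hox genes (13 of 14, median 0.30) had positive differences in most members, with 0 past the adjusted threshold in any of the 3 lists. Over all tested genes 49.9% were positive. At an unadjusted p under 0.05, 3 ribosomal protein genes were higher and 0 lower, and the other lists had 0 in either direction. Meiotic genes (18 of 20 negative, median -0.39) and ADAM and CRISP genes (17 of 23, median -0.65) leaned the other way, also with 0 past the adjusted threshold. Over all 33 lists, covering these and further cell types such as basal cells, adipocytes and erythroid cells, 0 members passed the edgeR threshold in either direction. How much any of these lists contributed to the differences of single genes was not tested.

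**Figure D4:**
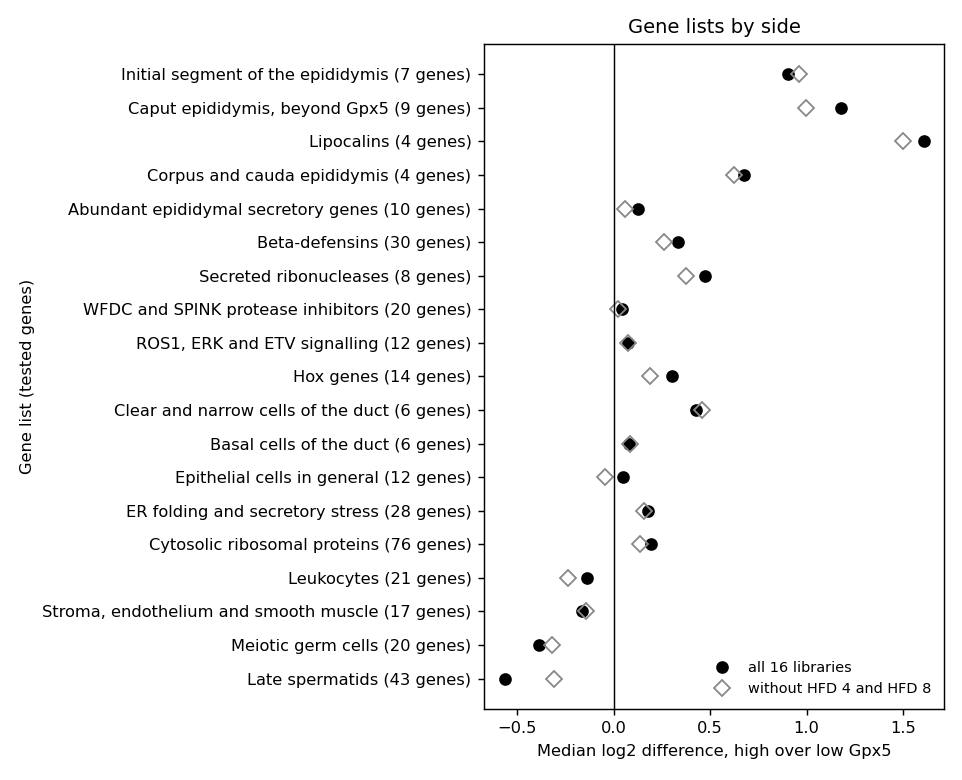
Median log2 difference (high over low Gpx5) of the tested genes of 19 lists, for all 16 libraries (filled) and without HFD 4 and HFD 8 (open). Lipocalins, caput and initial segment genes have medians of 1.61, 1.18 and 0.91, and late spermatids move from -0.56 to -0.31. Some lists share genes, such as Lcn5, Lcn6 and Lcn12 in the lipocalin and caput lists.

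The sides were also compared within each diet in a model with an interaction of side and diet. By edgeR 0 genes passed the adjusted threshold within CD (0% of genes, with 314 higher and 107 lower at an unadjusted p under 0.05), and 0 within HFD (0%, with 212 higher and 299 lower). For Clpsl2 the log2 difference was 5.21 ± 0.94 in CD and 7.08 ± 1.18 in HFD (SE). Slc38a5 differed by 5.39 ± 1.23 in CD and 6.09 ± 1.45 in HFD, and Prex2 by 3.74 ± 0.85 and 3.94 ± 0.96. The interaction itself passed the adjusted threshold for 0 genes (0%, 256 at an unadjusted p under 0.05) by edgeR, 1 by DESeq2 (Prss52) and 0 by limma-voom (1344 at an unadjusted p under 0.05). Spag11b, at 2.81 ± 0.79 in CD and 6.66 ± 1.02 in HFD, had an unadjusted interaction p of 0.00387 by edgeR and an adjusted p of 1.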

How the data were processed

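RNA of motile mouse sperm was measured in 16 libraries. Per the labels' protocols, sperm were sonicated, 2 ng of column-purified RNA was treated with DNase and amplified to cDNA, and 250 ng of cDNA entered each library. No molecular identifier is named, so amplified copies cannot be told from separate molecules. The deposited table holds the authors' raw read counts per gene symbol, without normalization. STAR, HTSeq 1.0.0, DESeq2 1.0.19 and mm10 are listed in the submitters' processing notes, with no role. Annotation and strand setting: not given in the sources used here. Overlapping genes on opposite strands may therefore share reads.

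There were 24062 gene rows. The 5 summary rows entered no library size or test: 58.0% to 76.1% of reads had no feature, 15.8% to 30.7% were not unique and 0.0474% to 0.0907% were ambiguous. CPM are counts per 1000000 gene counts. Log2 differences (high over low Gpx5) come from edgeR 4.0.16 in R 4.3.3, with TMM scaling, the default expression filter by diet, and the robust quasi-likelihood F-test of side with diet as covariate. This filter asks for expression in at least 8 libraries, the number per diet, and does not use the sides. A gene expressed only in the 9 high-side libraries can pass it, and one expressed only in the 7 low-side libraries cannot. Tests were two-sided and p-values were adjusted (Benjamini-Hochberg) over 13148 genes, at a threshold of 0.05. The SE is the size of the log2 difference over the square root of F. Pairs of libraries differed by chi-square values of 10.5 to 253 per degree of freedom over 120 pairs, so none was a copy. The series gives 8 mice per diet. The step was tested on simulated data. Of 50 genes changed at each size, those that passed the filter were counted. It recovered 8 of 49 2-fold changes, 34 of 47 4-fold, 44 of 47 8-fold and 44 of 44 16-fold, with 1 false call. Most 2-fold changes were thus missed, so a count of 0 past the threshold does not exclude them. Each gene was drawn independently, with no library made to stand apart as HFD 4 and HFD 8 do. The rates of recovery and of false calls may therefore differ in the real data.

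The rule, the 33 gene lists and the tests were chosen with earlier results of these data known. A naming rule took the genes past the threshold, up to 12 by p and 8 by size in each direction. It also took the tested members of each list with the highest mean CPM (at most 4), and all tested initial segment and caput genes. Values are written out for only some of the genes it took. Of the tested initial segment genes, they are given only for those with an unadjusted p under 0.05. Spag11a of the caput list is given without a difference. Other genes with values, among them Lcn2, Ly6g5c, Ndrg2, Pemt, Slc7a5, Slc19a3, Cd300a, Nup155 and single list members, were named after their values were seen. Gene positions are from GENCODE M21. Alternatives used DESeq2 1.42.0, limma-voom with library quality weights (limma 3.58.1), other scalings, filters, covariates and sets of libraries.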

Additional observations from a re-analysis of the deposited data

Results flagged for a closer look

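Within each side, 140 sets of values were screened for a single library far from the rest, and 38 had one. For a single set chance would give about 1 in 20. The sets share libraries and some genes, so the 38 are not separate departures. HFD 8 was far from the other high-side libraries in 16 summed gene lists (CPM, with the nearest other library in brackets). It was the lowest for other caput genes at 2497 (10884), corpus and cauda genes at 967 (3003), abundant epididymal secretory genes at 8560 (37147), beta-defensins at 1962 (6992), lipocalins at 422 (4133), WFDC and SPINK inhibitors at 3829 (17644) and secreted ribonucleases at 423 (2931). It was also the lowest for regulators of the caput at 235 (1004), Hox genes at 406 (755), clear and narrow cells at 80.4 (169), epithelial genes at 294 (1370), duct transport at 606 (1048), efferent ducts at 52.6 (159), Sertoli genes at 369 (2524) and the liver-secreted control at 25.5 (56.2). It was the highest for late spermatid genes at 60035 (11162). Among single genes it was the lowest for Ros1 at 10.1 (124), Lcn5 at 166 (3914) and Clu at 255 (2423).

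HFD 4 was far from the other low-side libraries in the share of reads with no feature, at 76.1% (67.6%). Its summed CPM were lowest for corpus and cauda genes at 909 (3691), abundant epididymal secretory genes at 14338 (46419), beta-defensins at 1755 (6262), WFDC and SPINK inhibitors at 5534 (21445), secreted ribonucleases at 589 (2217) and other glutathione peroxidases at 1562 (5411). They were also lowest for regulators of the caput at 329 (969), Hox genes at 314 (667), epithelial genes at 423 (1345), efferent ducts at 66.9 (208) and cytosolic ribosomal proteins at 17599 (28458). Among single genes HFD 4 was the lowest for Defb20 at 1.06 (12.6), Defb12 at 11.7 (94.6) and Lcn12 at 10.1 (53.0), and the highest for Rnase10 at 5.84 (1.16).

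CD 1 was the highest of the low side for Clpsl2 at 4.93 (1.06) and Ly6g5c at 10.7 (1.08), and CD 3 the lowest of the low side for adipocyte genes at 27.0 (50.2).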

How the results depend on the processing

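Gpx5 limits of 50 or 200 CPM gave the same split as 100 CPM, since no library lay between 28.4 and 246 CPM. They were therefore no further check. The count of 3 genes higher and 0 lower was the same with edgeR without robust estimation or with its newer fit. It was also the same with 3 other scalings, without Rn45s, with looser filters and with no diet term. It was 45 higher and 4 lower by DESeq2, 85 and 7 by limma-voom, 1 and 0 with a filter of 10 CPM in 7 libraries, 13 and 0 with the late spermatid sum as covariate, 22 and 0 with Gpx5 as a continuous term, and 4 and 0 without HFD 4 and HFD 8. In separate fits it was 0 for HFD libraries alone (8826 genes tested) and 15 for CD libraries alone (10566 tested), and Clpsl2, Slc38a5 and Prex2 passed the filter in neither fit. The filter there asked for expression in all 8 libraries of the diet. Genes nearly absent from the low side could therefore not be called in these fits. Chosen after the data were seen, leaving out HFD 3 and CD 6 gave 5 higher. Leaving out 1 library gave 1 to 8 higher: 8 without HFD 8, 7 without CD 1, 3 without HFD 3 or CD 6, and 1 without any other. With the replicate number as a block 0 genes passed (248 higher and 100 lower at an unadjusted p under 0.05, adjusted p of Clpsl2 0.159). Same-numbered libraries deviated with correlations of -0.395 to 0.605 and 2 of 8 numbers correlated best with themselves. The numbers were not taken as pairing, but 8 numbers are too few for this check to decide whether same-numbered libraries were handled together. The interaction called 1 gene by DESeq2, and 0 by limma-voom and with the block, both added after the data were seen. The difference in the share of Rn45s (-0.121 percentage points) became 0.49 without HFD 2, 1.43 without HFD 7, 0.57 without HFD 8, 1.66 without CD 2, 0.123 without CD 3, 0.358 without CD 7 and 1.51 without CD 8, in a range of -1.93 to 1.66, and that of reads not unique (0.994) became -0.219 without HFD 3, in a range up to 1.70. Of 1111 values of named genes under alternatives, 34 lost a call, 66 gained one and 0 changed sign with a call, and of 1218 list medians 11 moved by more than the spread. The causes were not tested. Depth limits low genes most: the low-side level of Clpsl2 rests on 1 to 17 counts per library.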
